A study of Homo sapiens with 38 samples.

Results

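Untreated HT-1080 cells, a human line from a fibrosarcoma (a malignant tumour of connective tissue), were compared with untreated HT-29 cells, a human line from a colorectal adenocarcinoma. The members are 9 of the 38 arrays of the series, taken by their labels as the untreated arrays of the parental lines: 6 of HT-1080 (replicates 1 to 6) and 3 of HT-29 (replicates 1 to 3). All 9 are labelled as controls for stress, inhibitor and time, and both lines carry their mitochondrial DNA. The study used them as the baseline for arrays of cells under endoplasmic reticulum (ER) stress, and its remaining untreated arrays come from derivatives without mitochondrial DNA, called rho0 (2 of HT-1080 and 1 of HT-29). Each tumour type is represented by 1 line, so a difference here is one between these lines. The labels do not say whether arrays of a line come from separate cultures, so the p-values reflect only how these arrays vary, and their number limits the precision.

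Epithelial cells, from which carcinomas arise, are joined by E-cadherin, claudins and desmosomes and hold keratin filaments, and colon epithelium adds mucins, a brush border and a stem cell programme that depends on Wnt signalling. Mesenchymal cells, from which sarcomas arise, hold vimentin filaments, lay down collagen-rich matrix and carry transcription factors of the ZEB, SNAI and TWIST families, which repress epithelial genes. Proliferating tumour cells of either kind draw on glucose and amino acids, and they meet oxidants through the factor NRF2 and misfolded ER proteins through the sensors IRE1, PERK and ATF6.

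Expression was measured as the signal of each gene's probe set, a summary of the brightness of its probes, scaled to the same trimmed mean (129.6) on every array. A signal of 51.8, 40% of that mean, was taken as the background level, and a gene was tested if at least 3 of the 9 arrays reached it. Equal amounts of total RNA were labelled, so a signal is a share of the RNA, and a smaller share cannot be told apart from less RNA of that gene per cell. The deposited trimmed means were 125 to 137 in HT-1080 and 127 to 129.6 in HT-29 before scaling, and 32.9% to 33.5% of probe sets in HT-1080 and 31.2% to 31.9% in HT-29 reached the background level. Over the genes tested, log2 signals of HT-1080 arrays correlated with each other at 0.967 to 0.984, and those of HT-1080 with HT-29 arrays at 0.656 to 0.686 (Pearson's r across genes, which are not independent replicates).

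HT-29 replicate 2 stood apart. Replicates 1 and 3 of HT-29 correlated at 0.978, and replicate 2 correlated with them at 0.945 to 0.951. Among 6834 genes with a mean HT-29 signal at or above the trimmed mean, 353 differed on replicate 2 by at least 1 on the log2 scale from the mean of the other HT-29 arrays, against 92 for replicate 1 and 143 for replicate 3. The genes named next were chosen after their values were seen. The carboxylesterase gene CES1 had signals of 4345, 21.9 and 3641 in HT-29 replicates 1, 2 and 3, the embryonic globin gene HBE1 839, 1.79 and 892, and the cancer-testis antigen gene MAGEA6 6157, 220.1 and 5602. The interferon-induced membrane protein gene IFITM3 ran the other way, with 2.46, 404 and 2.80. CES1 and HBE1 were below background on replicate 2 where the other HT-29 arrays were high, MAGEA6 was lower there but above background, and IFITM3 was above background on replicate 2 alone of the HT-29 arrays. The log2 difference of MAGEA6 between the lines (HT-1080 minus HT-29) was 1.06 and not called with all arrays, and -0.51 without replicate 2. The main counts are therefore given with and without that array.

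**Figure D1:**
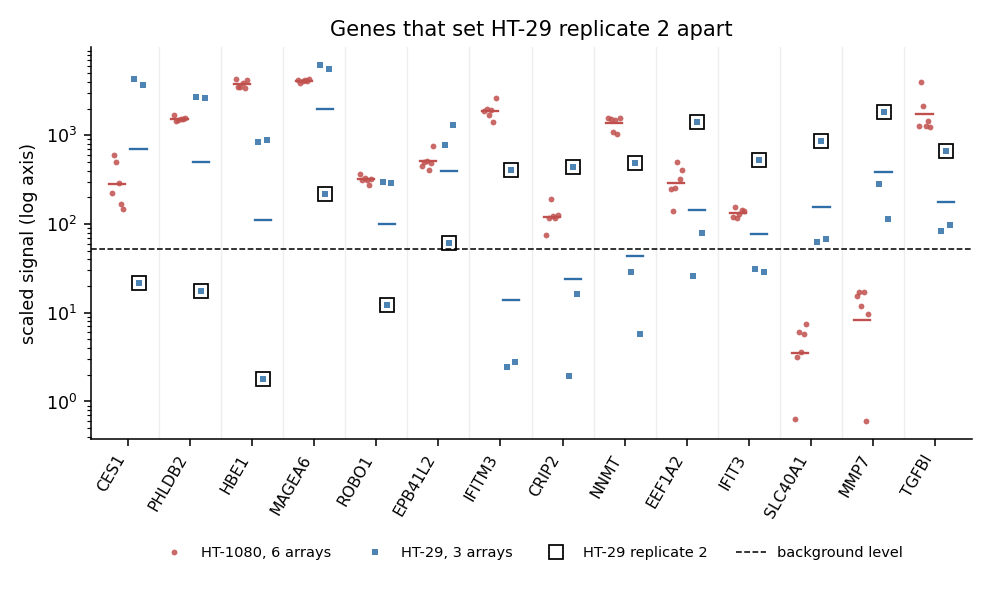
Signals (scaled, log axis) of 14 genes chosen because they set HT-29 replicate 2 apart, each point 1 array, with HT-1080 arrays left of HT-29 arrays for every gene; replicate 2 has its own marker, short lines are geometric means and the dashed line is the background level of 51.8. CES1, PHLDB2, HBE1 and ROBO1 are under the dashed line on replicate 2 and above it on the other HT-29 arrays, and IFITM3, NNMT and CRIP2 are above it on replicate 2 alone of the HT-29 arrays.

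Most genes differed between the lines. Of 10013 genes tested with limma, 3353 (33.5%) were higher in HT-1080 cells and 2810 (28.1%) lower at an adjusted p under 0.05, together 61.5%. With a difference of at least 1 on the log2 scale, which is 2-fold, 1760 (17.6%) were higher and 1301 (13%) lower, together 30.6%. The signals of the lines did not overlap for 5400 genes (53.9%). The median difference, HT-1080 minus HT-29 on the log2 scale as everywhere below, where values after ± are its standard error (SE) from limma, was 0.06 and the median size 0.57, beside a median SD over arrays of 0.20 in HT-1080 and 0.25 in HT-29. Without HT-29 replicate 2 the counts were 3392 higher and 2840 lower. Scaled instead to the 100 normalization probe sets of the platform, the median of all genes moved to 0.21, with 4018 genes higher and 2312 lower. Scaled to the median signal of the genes, 3041 were higher and 3176 lower, so small differences are best read against that shift.

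**Figure D2:**
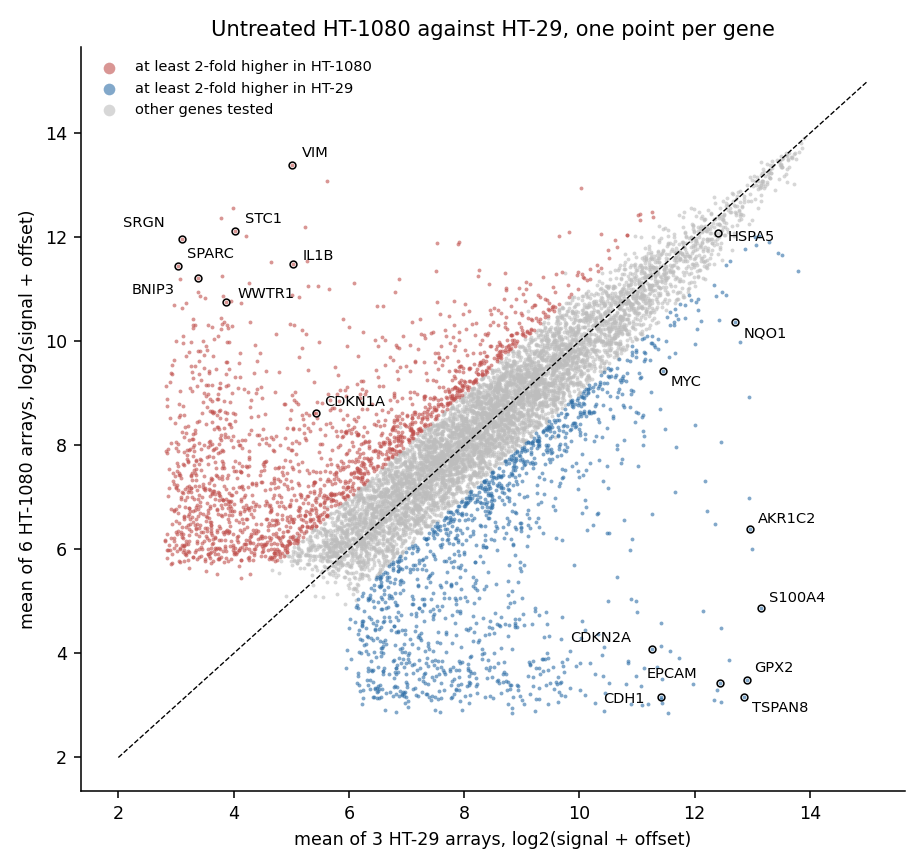
Mean log2 signal of each tested gene in HT-1080 (vertical axis) against HT-29 (horizontal axis), with colours for genes at least 2-fold higher or lower and some genes labelled. Genes lie far off the diagonal on both sides, with 1760 above it and 1301 below it past the 2-fold threshold.

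Many of the largest differences are of genes at background in 1 line. Of all genes tested, 554 did not reach the background level on any HT-1080 array and 1037 on any HT-29 array. For these, a fold is given as a lower bound, the geometric mean of the expressing line over the background level. The filter needed 3 arrays, which is every HT-29 array but only part of the 6 HT-1080 arrays. A gene expressed in HT-29 alone therefore passed less easily, and the counts lean toward HT-1080 by an amount that was not measured. EREG (172, 700 and 43.5 on the HT-29 arrays) and REG4 (294, 23.7 and 374), chosen after their values were seen, failed the filter in this way. A gene tested only because 1 line expresses it had to differ, so for lists rich in such genes the count and the median are descriptions. The members that reached the background in both lines are counted separately. Over the whole table, 8422 genes reached it in both lines, of which 2352 were higher and 2256 lower in HT-1080 cells. Every list count below is to be read beside the 33.5% higher and 28.1% lower over all genes tested.

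**Figure D3:**
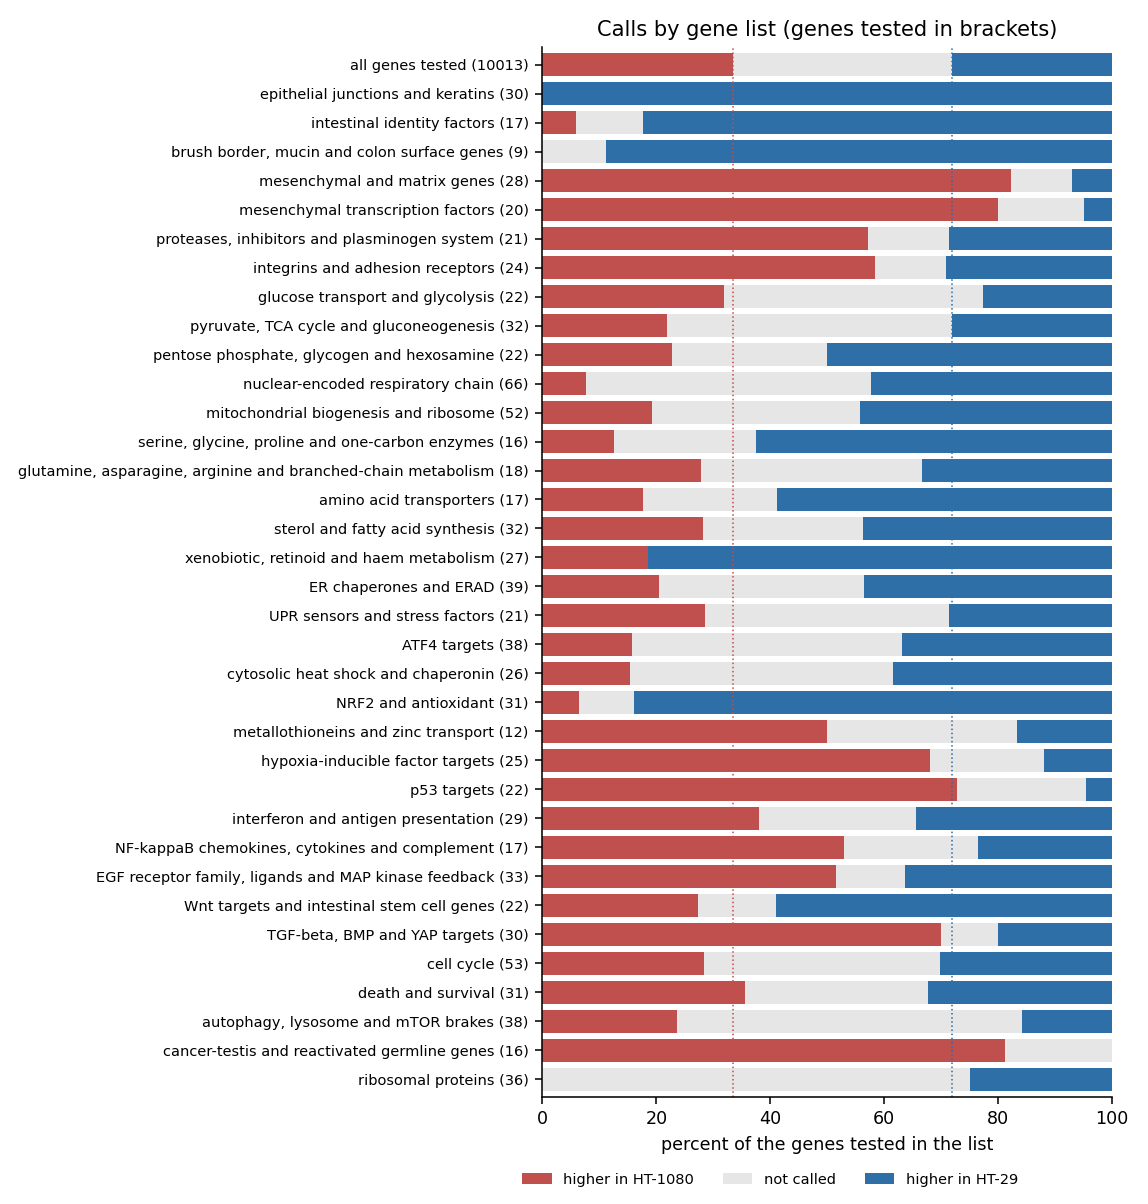
Percent of the tested members of each gene list (number tested in brackets) that were higher in HT-1080 cells (red, left), not called (grey) and higher in HT-29 cells (blue, right), with dotted lines at the shares over all genes tested. Epithelial, intestinal, xenobiotic and NRF2 lists are mostly blue, mesenchymal, p53 and germline lists mostly red, and the ribosomal list mostly grey.

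Epithelial genes were detected in HT-29 and nearly absent from HT-1080 arrays. Of 30 tested members of the list of junctions and keratins, 30 were lower in HT-1080 cells, with a median difference of -5.04, and 25 of them did not reach the background level there. Among the 5 members that did, 5 were lower (median -2.41). EPCAM, an adhesion molecule of epithelial surfaces, had signals of 1.25, 4.76 and 8.13 (lowest, median and highest of the 6 HT-1080 arrays, the order used throughout), against 5362, 5919 and 5436 on HT-29 replicates 1, 2 and 3. EPCAM was at least 107-fold lower in HT-1080 cells, and it passed the filter through HT-29 alone, so its p-value is not given.

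CDH1, which encodes E-cadherin, the adhesion protein of adherens junctions, had 0.491, 1.13 and 8.52 in HT-1080 cells, against 2651, 2889 and 2683 in HT-29 cells. The tight junction gene CLDN7 had 0.982, 2.44 and 9.76 in HT-1080 cells, against 847, 1259 and 994 in HT-29 cells. Every HT-29 signal of these genes was above the background level and every HT-1080 signal below it. The same held for CLDN3, for the vesicle protein gene MAL2 and for KRT19, a keratin of simple epithelia, which were at least 23.8-fold, 108-fold and 57.1-fold lower. Regulators of the epithelial state followed: ESRP1, which directs epithelial splicing, had 1.10, 2.99 and 17.2 in HT-1080 cells, against 1185, 1874 and 1406 in HT-29 cells, and the transcription factor genes GRHL2 and ELF3 were at least 6.00-fold and 7.36-fold lower in HT-1080 cells.

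Of 25 intestinal identity factors on the array, 17 passed the filter. Of those, 14 were lower in HT-1080 cells, with a median of -2.85, while 1 was higher. Of the 8 at or above the background level in both lines, 5 were lower and 1 higher (median -1.76). The intestinal factor genes CDX1 and CDX2, chosen after their values were seen, failed the filter. They reached at most 9.48 and 10.5 in HT-29 and 9.59 and 20.1 in HT-1080. EHF, an ETS factor of glandular epithelia, had 0.505, 8.17 and 12.5 in HT-1080 cells, against 2337, 4123 and 1844 in HT-29 cells. KLF5, a factor of proliferating crypt cells, was detected in both lines, with 54.0, 76.8 and 107 on the HT-1080 arrays and 1609, 1429.6 and 597 on the HT-29 arrays, a difference of -3.76 ± 0.29 that separated the lines. MYB, a progenitor factor, was at least 7.94-fold lower in HT-1080 cells, and FOXA2, a gut endoderm factor, was close to background even in HT-29 (52.2, 51.8 and 117).

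Only 9 of the 34 brush border, mucin and colon surface genes on the array passed the filter, and 8 of those were lower in HT-1080 cells, all of which lay below background there. TSPAN8, a tetraspanin of digestive epithelia, had the largest difference of those named here, with 0.714, 1.23 and 10.5 in HT-1080 cells, against 8081, 6208 and 8018 in HT-29 cells, at least 142-fold lower. LGALS4, an intestinal galectin, had 1.09, 8.80 and 14.3 in HT-1080 cells, against 1625, 2269 and 1671 in HT-29 cells. AGR2, an ER disulfide isomerase of mucus-secreting cells, was at least 52.3-fold lower. The carcinoembryonic antigen genes CEACAM5, CEACAM6 and CEACAM1 varied within HT-29, with CEACAM5 at 172, 302 and 732 and CEACAM6 at 252, 1113 and 359.9, and no HT-1080 array exceeded 40.2 for any of the 3 (at least 6.50-fold, 8.98-fold and 9.29-fold lower).

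VIL1, which bundles actin in microvilli, was modest in HT-29 (80.1, 307 and 97.8) and below background in HT-1080 cells. LYZ, the antimicrobial enzyme lysozyme and a member of the same list, had 2.35, 9.30 and 14.2 in HT-1080 cells, against 6137, 6684 and 5822 in HT-29 cells. Genes outside these lists reached similar sizes: CD9, a tetraspanin, and S100P, a calcium-binding protein of carcinomas, were at least 53.2-fold and 76.9-fold lower in HT-1080 cells. KRT20, a keratin of differentiated colon cells, did not pass the filter, with HT-29 signals of 143, 3279 and 16.7, highest on the array that stood apart.

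Mesenchymal and matrix genes that were detected ran the other way. Of 42 on the array, 28 passed the filter. Of those, 23 were higher in HT-1080 cells and 2 lower, with a median of 3.14, and 18 were below background on every HT-29 array. Among 8 at or above it in both lines, 5 were higher and 0 lower (median 2.14). Members that failed the filter stayed below background in both lines. Among them, chosen after their values were seen, COL1A2, COL3A1 and PDGFRB reached at most 31.9, 13.8 and 27.6 in HT-1080 cells. VIM, the intermediate filament of mesenchymal cells, had 10168, 10426 and 11637 in HT-1080 cells, against 36.1, 22.0 and 20.9 in HT-29 cells. VIM was at least 206-fold higher in HT-1080 cells, and it passed the filter through HT-1080 alone.

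SPARC, a collagen-binding matrix glycoprotein, had 2577, 2755 and 2993 in HT-1080 cells, against 1.76, 2.45 and 0.913 in HT-29 cells. COL6A3, a chain of collagen VI, had 755, 1264 and 2399 in HT-1080 cells, against 0.790, 6.86 and 12.9 in HT-29 cells, and varied over the HT-1080 arrays while staying apart from HT-29. LOXL2, which cross-links collagen, and AXL, a receptor kinase of mesenchymal tumour cells, were at least 21.1-fold and 22.7-fold higher. CDH2, which encodes N-cadherin, was modest in HT-1080 cells (177, 269.6 and 311) and at background in HT-29. CAV1, the coat protein of caveolae, was detected in both lines with 2187, 2570.3 and 3126 on the HT-1080 arrays and 619, 164 and 258 on the HT-29 arrays, a difference of 3.12 ± 0.30.

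The list was not uniform. FN1, the matrix protein fibronectin, had 90.6, 282 and 839 in HT-1080 cells, against 52.5, 2.94 and 70.4 in HT-29 cells, a wide spread in both lines and a difference of 2.92 ± 0.70. COL1A1, the main chain of collagen I, was near the background level in both lines and not called (-0.23 ± 0.21, adjusted p = 0.35). The members lower in HT-1080 cells were S100A4, a calcium-binding protein also called fibroblast-specific protein, with 6.67, 26.4 and 41.7 in HT-1080 cells, against 8623, 10522 and 8184 in HT-29 cells, and NT5E, the surface enzyme CD73, with 1.45, 9.65 and 16.0 in HT-1080 cells, against 255, 583 and 199 in HT-29 cells. For S100A4 this was at least 175-fold.

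Of 30 mesenchymal transcription factor genes on the array, 20 passed the filter. Of those, 16 were higher in HT-1080 cells and 1 lower (median 2.96), with 12 below background on every HT-29 array. Where both lines reached it, 4 of 8 were higher and 1 lower (median 1.24). ZEB1, a repressor of CDH1, had 646, 674 and 788 in HT-1080 cells, against 0.857, 8.96 and 12.7 in HT-29 cells. SNAI2, another repressor of epithelial genes, had 485, 647 and 971 in HT-1080 cells, against 12.1, 1.94 and 4.10 in HT-29 cells. TWIST1 was close to background in HT-1080 cells (46.9, 74.7 and 87.7) and at background in HT-29. FOXD1, a forkhead factor of stromal cells, had 4025, 4860.2 and 5060.5 in HT-1080 cells, against 21.6, 13.3 and 89.2 in HT-29 cells, where 1 of the HT-29 arrays reached the background level. HMGA2, an architectural chromatin protein of embryonic tissue, had a difference of 3.98 ± 0.14, and 0.50 by its probe set of lowest signal.

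**Figure D4:**
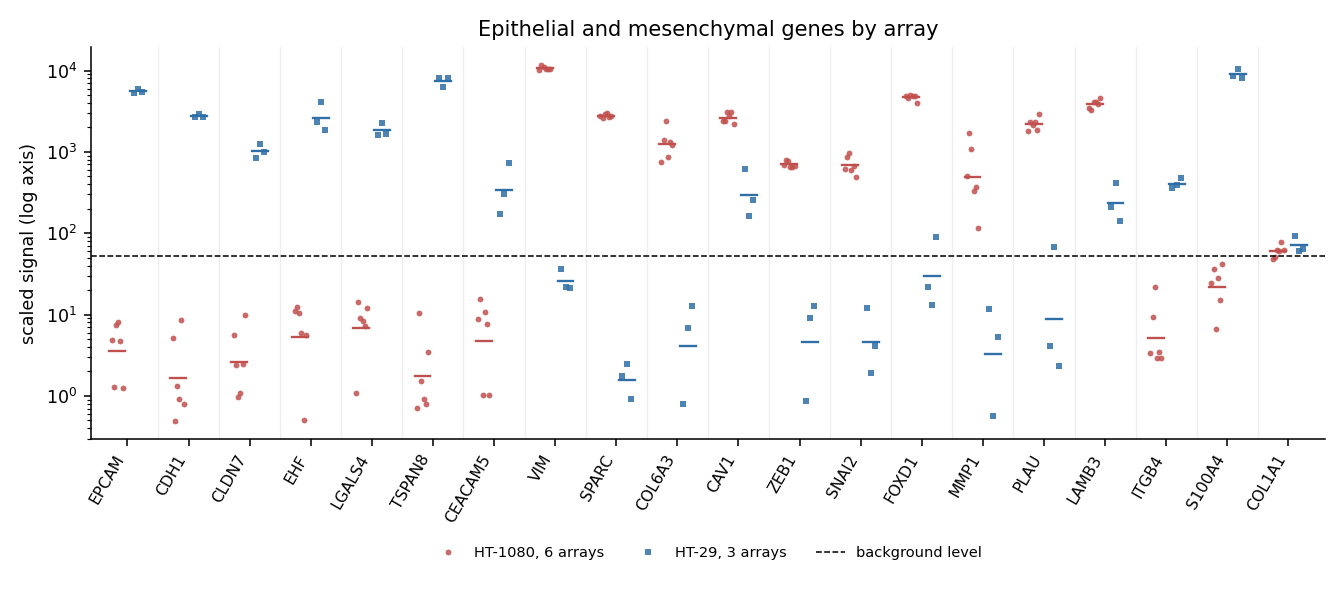
Signals (scaled, log axis) of 20 epithelial and mesenchymal genes, each point 1 array, with HT-1080 arrays left of HT-29 arrays for every gene, geometric means as short lines and the background level dashed. EPCAM to CEACAM5 lie above the dashed line in HT-29 alone, VIM and SPARC lie above it in HT-1080 alone, and S100A4 goes against the mesenchymal genes.

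Among genes without a place in those lists, differences among the 15 largest in favour of HT-1080 included those of SRGN, a proteoglycan core protein of secretory granules, BEX3, TMEM158 and DHRS2, a mitochondrial dehydrogenase. SRGN had 3542, 4067 and 4209 in HT-1080 cells, against 2.66, 2.58 and 1.09 in HT-29 cells. BEX3 and TMEM158 were at least 117-fold and 102-fold higher in HT-1080 cells. HLTF, a helicase-like factor of DNA damage tolerance, had 1727, 1825 and 2134 in HT-1080 cells, against 1.23, 6.26 and 5.83 in HT-29 cells, so that no HT-29 array reached the background level (at least 35.9-fold).

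Of 21 proteases, inhibitors and plasminogen genes tested, 12 were higher in HT-1080 cells and 6 lower (median 2.17). Among 10 at or above background in both lines, 5 were higher and 2 lower, with a smaller median of 0.57. The collagenase gene MMP1 had 116, 436 and 1714 in HT-1080 cells, against 11.7, 0.567 and 5.31 in HT-29 cells, the widest range over the HT-1080 arrays of the proteases named here. The gelatinase gene MMP2 and its membrane-bound activator MMP14 were at least 5.96-fold and 6.46-fold higher. PLAU, the urokinase that activates plasminogen, had 1830.5, 2231 and 2927 in HT-1080 cells, against 4.14, 68.6 and 2.33 in HT-29 cells, and in HT-29 only replicate 2 reached the background level. TIMP2, an inhibitor of the MMP enzymes, showed the same pattern in HT-29, with 1147, 1597 and 2092 on the HT-1080 arrays and 38.1, 314 and 44.6 on the HT-29 arrays.

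Other proteases marked HT-29. KLK10 and KLK6, secreted kallikreins, had 6022, 4603 and 5019.5 and 1411, 4386 and 976 in HT-29 and were at least 100-fold and 35.1-fold lower in HT-1080 cells. MMP7, a matrilysin of glandular epithelia, had 0.601, 13.7 and 17.3 in HT-1080 cells, against 281, 1833 and 114 in HT-29 cells, highest on replicate 2.

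Integrins and adhesion receptors differed in both directions. Of 24, 14 were higher (58.3%) and 7 lower (29.2%) in HT-1080 cells (median 0.77), beside 33.5% and 28.1% of all genes tested. Of 16 detected in both lines, 9 were higher and 4 lower (median 0.37). ITGA5, the fibronectin receptor chain, had 251, 398 and 561 in HT-1080 cells, against 26.7, 46.1 and 35.6 in HT-29 cells. ITGB4, the hemidesmosome chain, had 2.89, 3.43 and 21.6 in HT-1080 cells, against 356, 397 and 474 in HT-29 cells. ITGA6, its partner, differed little (-0.55 ± 0.15) and its signals overlapped between the lines. LAMB3, a laminin chain of epithelial basement membranes, was higher in HT-1080 cells by 4.01 ± 0.24.

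Growth factor signalling genes differed in both directions. Of 33 genes of the EGF receptor family, its ligands and MAP kinase feedback, 17 were higher (51.5%) and 12 lower (36.4%) in HT-1080 cells. Over all genes tested the shares were 33.5% and 28.1%. Among 22 detected in both lines, 13 were higher and 5 lower. Of the ligands, HBEGF had 828, 999 and 1301 in HT-1080 cells, against 75.8, 111 and 93.9 in HT-29 cells, and NRG1, which binds ERBB3, was modest in HT-1080 cells (89.5, 146 and 175) and at background in HT-29. Of the receptors, EGFR had 1019, 1094 and 1365 in HT-1080 cells, against 295, 448 and 251 in HT-29 cells. ERBB3 showed the reverse, with 0.714, 2.29 and 12.7 in HT-1080 cells, against 509.8, 734 and 649.9 in HT-29 cells, and ERBB2, its signalling partner, was lower in HT-1080 cells by a difference of -1.47 ± 0.25.

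The fibroblast growth factor receptors also differed in both directions. FGFR1 was higher in HT-1080 cells (at least 3.04-fold), together with the ligand gene FGF2 (at least 2.06-fold), while FGFR2 and FGFR4 were lower (at least 4.59-fold and 4.89-fold). The 4 passing probe sets of FGFR1 gave differences from 0.30 to 3.55. Feedback genes of the MAP kinase pathway did not move together. DUSP6, a phosphatase for ERK, had 0.985, 9.50 and 20.5 in HT-1080 cells, against 402, 627 and 664 in HT-29 cells, whereas DUSP5, another ERK phosphatase, had 1644, 1851 and 2636 in HT-1080 cells, against 98.2, 93.9 and 127 in HT-29 cells. DUSP4 was not called (0.05 ± 0.31). The AP-1 subunit gene FOSL1 and the feedback inhibitor gene SPRY2 were higher (2.20 ± 0.21 and 2.14 ± 0.22), and the immediate early gene EGR1 was lower (-3.40 ± 0.36).

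Wnt targets and intestinal stem cell genes were lower in HT-1080 cells for 13 of 22 tested and higher for 6 (median -2.01). Among 12 detected in both lines, 6 were lower and 3 higher, with a smaller median of -0.51. AXIN2, a feedback target of beta-catenin, had 12.3, 16.4 and 23.6 in HT-1080 cells, against 559, 416 and 440.4 in HT-29 cells. LGR5, the receptor that marks crypt stem cells, had 0.386, 0.780 and 3.12 in HT-1080 cells, against 447, 69.7 and 446 in HT-29 cells, lowest of the HT-29 arrays on replicate 2. RNF43, a brake on Wnt receptors, the Wnt antagonist DKK1 and the ligand gene BMP4 were at least 9.21-fold, 24.6-fold and 13.4-fold lower. MYC was detected in both lines, with 565, 640.0 and 957 on the HT-1080 arrays and 2864, 2430.2 and 3083 on the HT-29 arrays, a difference of -2.01 ± 0.16. LEF1, a nuclear partner of beta-catenin, went the other way (at least 5.75-fold higher in HT-1080 cells).

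Targets of TGF-beta, BMP and YAP signalling were higher in HT-1080 cells for 21 of 30 and lower for 6 (median 1.04). Of the 21 detected in both lines, 14 were higher and 4 lower (median 0.76). The YAP targets CCN1 and CCN2 had 1775, 2074 and 2423 in HT-1080 cells, against 32.0, 54.1 and 47.5 in HT-29 cells for CCN1 and 602, 674 and 792 in HT-1080 cells, against 21.8, 23.8 and 9.18 in HT-29 cells for CCN2. WWTR1, the YAP paralogue TAZ, was at least 33.3-fold higher. SMAD4, the shared mediator of TGF-beta and BMP receptors, had 402, 424 and 493 in HT-1080 cells, against 23.7, 30.2 and 31.4 in HT-29 cells, so it did not reach the background level on any HT-29 array. The BMP targets ID3 and ID1 differed from each other: ID3 was at least 19.3-fold higher, and ID1 was high in both lines and not called (0.37 ± 0.29).

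Inflammatory cytokines differed in both directions. Of 17 chemokines, cytokines and complement genes tested, 9 were higher (52.9%) and 4 lower (23.5%), beside 33.5% and 28.1% of all genes tested. Their median was 0.76, and 6 were below background in HT-29. Of 10 detected in both, 4 were higher and 3 lower (median 0.16). IL1B, a pyrogenic cytokine, had 1868, 2905 and 3621 in HT-1080 cells, against 24.4, 48.2 and 14.1 in HT-29 cells. IL11, a cytokine of stromal cells, had 628, 710.5 and 994 in HT-1080 cells, against 7.64, 2.30 and 0.656 in HT-29 cells. CXCL8, the neutrophil chemokine interleukin 8, was detected in both lines, with 553, 751 and 2081 on the HT-1080 arrays and 112, 188 and 59.2 on the HT-29 arrays. IL18 ran the other way, at least 2.05-fold lower in HT-1080 cells.

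The promoters of IL11 and CXCL8, higher in HT-1080 cells, and of CLDN4, a tight junction gene of the epithelial list lower there (3.22, 8.14 and 18.2 in HT-1080 cells, against 478, 1044 and 600.3 in HT-29 cells), are printed because all hold the binding motif of AP-1, the factor to which FOSL1 belongs. They are the 250 bases before the transcription start in GRCh38.p14, from RefSeq, 5′ to 3′ on the gene's strand (minus for IL11, plus for CXCL8 and CLDN4), with matches to TGANTCA in capitals.
IL11, chr19:55370464-55370713: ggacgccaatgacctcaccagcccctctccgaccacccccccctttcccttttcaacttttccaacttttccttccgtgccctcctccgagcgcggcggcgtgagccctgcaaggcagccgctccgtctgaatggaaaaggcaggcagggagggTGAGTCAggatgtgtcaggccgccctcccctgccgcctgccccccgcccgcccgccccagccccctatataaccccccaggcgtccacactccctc
CXCL8, chr4:73740319-73740568: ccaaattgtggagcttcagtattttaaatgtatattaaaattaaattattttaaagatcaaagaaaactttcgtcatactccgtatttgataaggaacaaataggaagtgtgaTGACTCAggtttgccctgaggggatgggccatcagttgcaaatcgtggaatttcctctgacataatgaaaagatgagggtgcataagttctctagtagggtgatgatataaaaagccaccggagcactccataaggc
CLDN4, chr7:73830746-73830995: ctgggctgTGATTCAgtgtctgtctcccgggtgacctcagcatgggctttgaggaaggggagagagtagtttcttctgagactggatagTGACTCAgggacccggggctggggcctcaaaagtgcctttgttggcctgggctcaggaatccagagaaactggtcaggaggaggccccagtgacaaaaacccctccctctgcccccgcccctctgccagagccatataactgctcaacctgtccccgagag
The match starts at position -96 from the start of IL11 and -137 from that of CXCL8, and CLDN4 has matches at -242 and -161. Searched on both strands of the 300 bases given for each gene, TGANTCA, which reads the same on both strands, was in 6.50% of 1415 matched promoters of genes at least 2-fold higher in HT-1080 cells and 6.36% of 1007 of genes at least 2-fold lower. It was in 4.49% of 8333 promoters of all genes tested and 7.76% of all 27305 promoters given. A match is a run of letters and not a measured binding site.

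Of 22 genes of glucose transport and glycolysis, 7 were higher and 5 lower in HT-1080 cells, and 10 were not called, beside 61.5% called over all genes tested. Their median of 0.02 turned to -0.06 when arrays were scaled to the median signal, where 7 were higher and 8 lower. The glucose transporters differed: SLC2A3 had 177, 187 and 208 in HT-1080 cells, against 2.92, 1.65 and 2.58 in HT-29 cells, and SLC2A1 was not called (-0.11 ± 0.26), with 302, 393 and 473 on the HT-1080 arrays and 359, 763 and 261 on the HT-29 arrays. Hexokinase genes did too, with HK1 higher (1.41 ± 0.15) and HK2 not called (0.28 ± 0.17).

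Further down the pathway, GPI, the isomerase after hexokinase, had 1394, 1729 and 2134 in HT-1080 cells, against 3938, 4197 and 4329 in HT-29 cells. ALDOC, an aldolase, and PFKFB3, which makes the activator of phosphofructokinase, were higher in HT-1080 cells by 2.71 ± 0.34 and 1.01 ± 0.20, and PFKFB4, its relative, was at least 5.17-fold higher. LDHA, which makes lactate, had 8003, 8681 and 9134 on the HT-1080 arrays and 8814, 9548 and 9282 on the HT-29 arrays, overlapped and was not called (-0.08 ± 0.06, adjusted p = 0.26). LDHB was not called either (-0.17 ± 0.08).

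In the list of pyruvate, the TCA cycle and gluconeogenesis, 7 of 32 were higher (21.9%) and 9 lower (28.1%), beside 33.5% and 28.1% of all genes tested. The median was -0.18, and -0.04 with the normalization probe sets. The counts depended on the scaling: 13 were higher and 9 lower with the normalization probe sets, 8 and 10 under quantile normalization, and 6 and 12 when arrays were scaled to the median signal. PDP1, the phosphatase that switches on pyruvate dehydrogenase, had 2147, 2587 and 3049.5 in HT-1080 cells, against 172, 224 and 143 in HT-29 cells, a difference of 3.84 ± 0.15. IDH2, the mitochondrial enzyme that makes NADPH from isocitrate, had 25.1, 36.7 and 53.6 in HT-1080 cells, against 148, 577 and 278 in HT-29 cells, with HT-29 replicate 2 the highest. IDH1, its cytosolic counterpart, IDH3A of the TCA cycle and ME1, the cytosolic malic enzyme, were lower, with differences of -0.95 ± 0.15, -1.20 ± 0.14 and -1.03 ± 0.11.

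Of 22 pentose phosphate, glycogen and hexosamine genes, 11 were lower in HT-1080 cells and 5 higher (median -0.36). UGDH, which makes UDP-glucuronate for conjugation and matrix polysaccharides, had 249.9, 315 and 358 in HT-1080 cells, against 3170.1, 2157 and 3374 in HT-29 cells. TALDO1 and PGD of the pentose phosphate pathway were lower, with differences of -1.66 ± 0.14 and -0.48 ± 0.08. Glycogen enzymes split: PYGB, which breaks glycogen down, was lower (-1.99 ± 0.25), and GBE1, which branches it, was higher, with 953, 1085 and 1294 on the HT-1080 arrays and 145, 193 and 124 on the HT-29 arrays.

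Nuclear-encoded respiratory chain genes were lower in HT-1080 cells for 28 of 66 and higher for 5, with a small median of -0.17 that came to -0.02 with the normalization probe sets. The counts depended on the scaling: 13 were higher and 22 lower with the normalization probe sets, 11 and 21 under quantile normalization, and 3 and 33 when arrays were scaled to the median signal. None of the 66 was at least 2-fold higher, and the 2 at least 2-fold lower were UQCRC2, a core subunit of complex III, with 1511, 1715 and 1793 in HT-1080 cells, against 3686, 2831 and 3834 in HT-29 cells, and NDUFA7 of complex I (-1.11 ± 0.18). Mitochondrial biogenesis and ribosome genes had 23 of 52 lower and 10 higher (median -0.25), or 22 and 15 with the normalization probe sets, and MRPL13 of the mitochondrial ribosome was lower, with a difference of -1.71 ± 0.08. The 13 protein-coding transcripts of mitochondrial DNA were not analysed here.

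Of the genes of glutamine, arginine and branched-chain metabolism, BCAT1, the cytosolic transaminase of branched-chain amino acids, had 1386, 1543 and 1983 in HT-1080 cells, against 4.02, 0.612 and 2.02 in HT-29 cells, at least 30.5-fold higher. GLUL, which makes glutamine, had 0.708, 8.27 and 15.3 in HT-1080 cells, against 691, 683 and 858 in HT-29 cells, at least 14.3-fold lower. The list that holds both had 5 of 18 higher (27.8%) and 6 lower (33.3%), beside 33.5% and 28.1% of all genes tested. Its median of -0.03 became 0.11 with the normalization probe sets. ARG2, the mitochondrial arginase, was higher (3.55 ± 0.22).

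Serine, glycine, proline and one-carbon enzymes were lower for 10 of 16 and higher for 2 (median -0.43). PSPH, the last step of serine synthesis, was lower (-1.14 ± 0.14), PSAT1, the step before, slightly lower (-0.37 ± 0.12, a call lost without HT-29 replicate 1 or 3 and with the normalization probe sets), and PHGDH, the first, not called (-0.41 ± 0.25). CBS, which commits homocysteine to cysteine, was modest in HT-1080 cells (100.2, 136 and 177) and at background in HT-29.

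Amino acid transporters were lower for 10 of 17 and higher for 3 (median -0.66), and for 7 and 2 of the 13 detected in both lines (median -0.57). SLC38A1, a glutamine importer, had 0.508, 1.49 and 3.38 in HT-1080 cells, against 2173, 2274 and 1378 in HT-29 cells, at least 36.6-fold lower. SLC7A5 and SLC3A2, the chains of the large neutral amino acid exchanger, were lower, with differences of -1.72 ± 0.18 and -1.34 ± 0.16. Glutamate transporters were exchanged, with SLC1A1 at least 13.1-fold lower and SLC1A3 at least 2.38-fold higher in HT-1080 cells. SLC7A11, the cystine importer, was not called (-0.57 ± 0.27, adjusted p = 0.082).

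Of 32 sterol and fatty acid synthesis genes, 14 were lower in HT-1080 cells (43.8%) and 9 higher (28.1%), with a median of -0.26. Over all genes tested, 28.1% were lower and 33.5% higher. In sterol synthesis, SQLE, which makes squalene epoxide, had 787, 1034 and 1164 in HT-1080 cells, against 3935, 4023 and 4309 in HT-29 cells, and HMGCS1, an early step, was lower (-1.11 ± 0.23). In fatty acid metabolism, ELOVL5, which elongates polyunsaturated acids, had 1542, 1655 and 1854 in HT-1080 cells, against 2.19, 1.30 and 0.562 in HT-29 cells, at least 32.1-fold higher, and FADS2, the desaturase of the same route, was at least 3.05-fold higher. ACSL5, an acyl-CoA synthetase of gut epithelium, was at least 20.2-fold lower. FASN, fatty acid synthase, was slightly higher with overlap (0.66 ± 0.24), a call lost when any of 6 arrays was left out, and SCD, the main desaturase, was not called (-0.18 ± 0.22).

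In xenobiotic, retinoid and haem metabolism, 22 of 27 genes were lower in HT-1080 cells and 5 higher, with a median of -3.06. Among 18 detected in both lines, 14 were lower and 4 higher (median -2.17). ALDH1A1, which oxidises retinaldehyde, had 0.512, 2.15 and 14.0 in HT-1080 cells, against 5062, 5399.8 and 5549 in HT-29 cells. AKR1B10, an aldo-keto reductase that reduces retinal, had 22.1, 45.6 and 159 in HT-1080 cells, against 7652, 7765 and 9198 in HT-29 cells, a difference of -7.00 ± 0.46. These were among the highest signals of the list on the HT-29 arrays, and no HT-1080 array came near them.

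The neighbouring reductase genes AKR1C1, AKR1C2 and AKR1C3, whose sequences are much alike so that probes may be shared, were lower, with differences of -5.95 ± 0.40, -6.55 ± 0.36 and -5.86 ± 0.43. ALDH3A1, CYP1B1 and UGT1A6, an aldehyde dehydrogenase, a cytochrome P450 and a glucuronosyltransferase, were at least 42.8-fold, 12.7-fold and 11.1-fold lower. The exceptions included GSTM3, a glutathione transferase (at least 21.1-fold higher), MAOA, the amine oxidase, with 904, 1030.3 and 1077 in HT-1080 cells, against 22.0, 104 and 21.4 in HT-29 cells, and NNMT, the nicotinamide methyltransferase, with 1039, 1519.5 and 1577 in HT-1080 cells, against 28.7, 492 and 5.69 in HT-29 cells. For MAOA and NNMT only replicate 2 of HT-29 reached the background level.

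**Figure D5:**
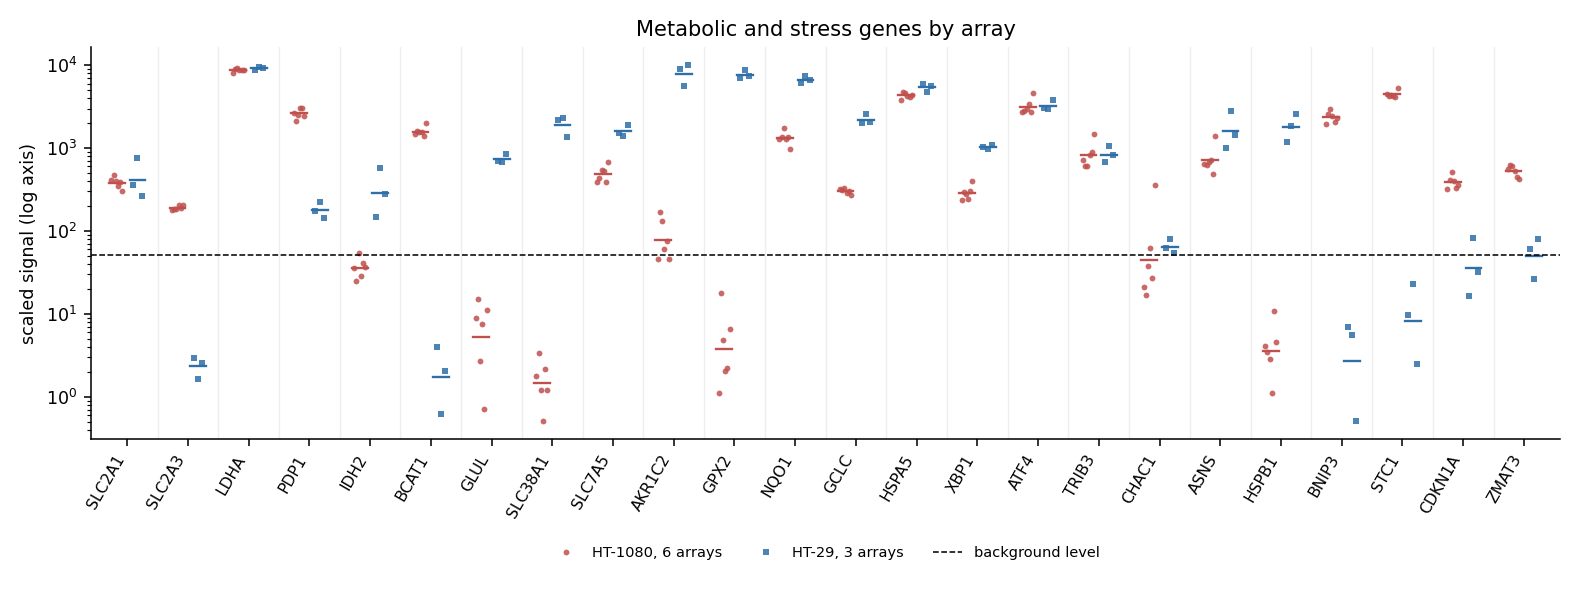
Signals (scaled, log axis) of 24 metabolic and stress genes, each point 1 array, with HT-1080 arrays left of HT-29 arrays for every gene, geometric means as short lines and the background level dashed. SLC2A1, LDHA, ATF4 and TRIB3 overlap between the lines, BCAT1, BNIP3 and STC1 are above the dashed line in HT-1080 alone, and GLUL, GPX2 and HSPB1 in HT-29 alone.

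NRF2 and antioxidant genes were lower in HT-1080 cells for 26 of 31 and higher for 2, with a median of -1.03. Here 29 members were detected in both lines, of which 24 were lower and 2 higher, and the median ranged between -0.89 and -1.14 over the other scalings and probe set rules. NQO1, a quinone reductase and standard NRF2 target, had 974, 1321 and 1759 in HT-1080 cells, against 6139.6, 7381 and 6562 in HT-29 cells. GCLC and GCLM, the subunits of the enzyme that limits glutathione synthesis, were lower, with differences of -2.82 ± 0.12 and -1.29 ± 0.23.

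TXNRD1, thioredoxin reductase, had 3058, 3427 and 4059 in HT-1080 cells, against 5329, 5257 and 6027 in HT-29 cells. HMOX1, haem oxygenase, was low in HT-1080 cells and uneven in HT-29, with 38.3, 61.7 and 83.6 on the HT-1080 arrays and 325, 131 and 716 on the HT-29 arrays, and GSTP1, a glutathione transferase, was lower, with a difference of -2.01 ± 0.09. GPX8, an ER glutathione peroxidase, was one of the members higher in HT-1080 cells (3.28 ± 0.42). GPX2, the gastrointestinal glutathione peroxidase, had 1.11, 3.51 and 17.9 in HT-1080 cells, against 6977, 8675 and 7397 in HT-29 cells, at least 148-fold lower.

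ER chaperones and degradation genes had 17 of 39 lower in HT-1080 cells and 8 higher (median -0.28), and 14 and 10 with the normalization probe sets. HSPA5, the ER chaperone BiP, had 3822, 4295 and 4811 in HT-1080 cells, against 5891, 4717 and 5684 in HT-29 cells. The lines overlapped, the difference was -0.32 ± 0.09, and another probe set of HSPA5 was called the other way. Without HT-29 replicate 1 the difference of HSPA5 was -0.26 and no longer called. HSP90B1 (GRP94) was slightly lower (-0.30 ± 0.11), a call lost without HT-1080 replicate 2 or 4 or HT-29 replicate 1 or 3 (the difference without HT-29 replicate 3 was -0.19). PDIA4, a disulfide isomerase, and DERL1, a channel component of ER-associated degradation, were clearly apart, with differences of -1.41 ± 0.14 and -1.85 ± 0.11, while CALR (calreticulin) and ERO1A, the ER oxidase, were higher in HT-1080 cells (1.11 ± 0.32 and 1.11 ± 0.15). The signals of CALR overlapped between the lines, with 465 on HT-1080 replicate 1 and 557 on HT-29 replicate 3, and its probe sets gave differences from 0.25 to 1.11. The probe set of ERO1A with the lowest signal gave a difference near 0. HERPUD1, DNAJB9 and SEL1L were not called (0.18 ± 0.23, -0.28 ± 0.16 and -0.02 ± 0.12).

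The ER stress sensors and their factors had 6 of 21 higher in HT-1080 cells and 6 lower (28.6% each), beside 33.5% and 28.1% of all genes tested. Their median of -0.02 became 0.13 without HT-29 replicate 2 and 0.12 with the normalization probe sets. Of the sensors, ATF6 was higher (1.29 ± 0.22), EIF2AK3 (PERK) lower (-0.85 ± 0.17) and ERN1 (IRE1) not called (0.34 ± 0.22). The 4 passing probe sets of ATF6 gave differences from 0.02 to 1.29, and another probe set of ERN1 gave 1.01. ERN2, the IRE1 form of mucosal epithelia, had 4.02, 17.5 and 42.1 in HT-1080 cells, against 187, 121 and 156 in HT-29 cells. XBP1, the factor spliced by IRE1, had 236, 287 and 399.6 in HT-1080 cells, against 1043, 971 and 1079 in HT-29 cells, without overlap. ATF4 was high in both lines and not called (-0.05 ± 0.15), and neither were DDIT3 (CHOP) and TRIB3 (0.40 ± 0.40 and -0.04 ± 0.24). ATF3 and PPP1R15A (GADD34), which restores translation, were higher (1.59 ± 0.33 and 1.74 ± 0.17).

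Targets of ATF4, which responds to ER stress and amino acid shortage, were lower in HT-1080 cells for 14 of 38 and higher for 6 (median -0.34). The counts depended on the scaling: 8 were higher and 9 lower with the normalization probe sets, 8 and 10 under quantile normalization, and 6 and 19 when arrays were scaled to the median signal. This list moved with 1 HT-1080 array: replicate 6 was the highest of the 6 for 28 of 38 members (73.7%), against 20.2% of all genes. Without it, 17 were lower and 6 higher (median -0.40). ASNS, asparagine synthetase, had 490.5, 659.6 and 1402 in HT-1080 cells, against 1014, 2833 and 1431 in HT-29 cells, where 1402 was replicate 6, and its difference was -1.16, or -0.75 without HT-29 replicate 2. CHAC1, which degrades glutathione, had 17.1, 32.4 and 359 in HT-1080 cells, against 62.0, 80.3 and 54.4 in HT-29 cells, again with replicate 6 the highest, and was not called (-0.40 ± 0.67), but was called without it (-0.96). DDIT4, a brake on mTOR, was likewise spread in both lines (97.9, 139 and 796 in HT-1080 cells, against 88.4, 279 and 600.5 in HT-29 cells) and not called.

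INHBE, an ATF4-responsive activin subunit, did not pass the filter, and was chosen after its values were seen: it had 413 on HT-1080 replicate 6, and the other HT-1080 arrays lay between 9.80 and 38.3, below background. Targets that separated the lines included SESN2, a leucine sensor of the mTOR pathway, higher by 1.50 ± 0.27, and STC2, a secreted glycoprotein, at least 2.84-fold higher in HT-1080 cells. The stress cytokine GDF15 was not called (-0.38 ± 0.32).

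Cytosolic heat shock genes had 10 of 26 lower in HT-1080 cells and 4 higher, with a median of -0.11 that turned to 0.03 with the normalization probe sets and 0.03 under quantile normalization. The counts depended on the scaling: 7 were higher and 7 lower with the normalization probe sets, 5 and 7 under quantile normalization, and 4 and 12 when arrays were scaled to the median signal. HSPB1, the small heat shock protein HSP27, had 1.10, 3.78 and 10.7 in HT-1080 cells, against 1183, 1834 and 2606 in HT-29 cells, at least 34.4-fold lower. Its relative HSPB8 ran the other way, at least 3.74-fold higher. HSPH1, an HSP110 chaperone, and BAG3, a co-chaperone, were called with overlapping signals (-0.50 ± 0.14 and 0.79 ± 0.22, for BAG3 0.41 without HT-29 replicate 2), and DNAJB1 (HSP40) was not called (0.08 ± 0.13). Of the metallothioneins and zinc transporters, 6 of 12 were higher and 2 lower (median 0.38). MT2A had 5045, 5315 and 6854 in HT-1080 cells, against 2269, 1593 and 2605 in HT-29 cells, MT1E was lower (-0.64 ± 0.18) and MT1G was not called. These genes are near copies of each other, so their probes may be shared.

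Targets of the hypoxia-inducible factor were higher in HT-1080 cells for 17 of 25 and lower for 3 (median 1.01). Among 19 detected in both lines, 12 were higher and 2 lower (median 0.77). BNIP3, a mitophagy receptor, had 1960.0, 2374 and 2968 in HT-1080 cells, against 6.89, 5.59 and 0.514 in HT-29 cells, and was below background on every HT-29 array. STC1, a secreted calcium-regulating glycoprotein, was likewise at least 85.7-fold higher.

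LOX, which cross-links collagen, was at least 4.58-fold higher. NDRG1 and VEGFA, the vascular growth factor, were higher by 2.49 ± 0.47 and 1.51 ± 0.20, and ADM, adrenomedullin, was lower (at least 2.73-fold). Replicate 3 was the highest HT-1080 array for 15 of the 25 members.

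Targets of p53 were higher in HT-1080 cells for 16 of 22 and lower for 1 (median 1.30). Of 20 detected in both lines, 14 were higher and 1 lower (median 1.09). CDKN1A, the cell cycle inhibitor p21, had 321, 382 and 508 in HT-1080 cells, against 16.5, 83.4 and 32.4 in HT-29 cells. GADD45A, a growth arrest gene, had 889, 1078 and 1273 in HT-1080 cells, against 165, 307 and 202 in HT-29 cells. Neither overlapped.

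ZMAT3, an RNA-binding p53 target, the death receptor gene FAS and the DNA repair gene DDB2 were higher by 3.21 ± 0.25, 2.71 ± 0.32 and 3.13 ± 0.19. Smaller differences were those of MDM2, the ligase that degrades p53 (0.90 ± 0.19), and RRM2B, a ribonucleotide reductase subunit (0.93 ± 0.17). SESN1, a sestrin, was near background in HT-29 and higher in HT-1080 cells by 2.15 ± 0.15.

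Interferon and antigen presentation genes were divided, 11 of 29 higher in HT-1080 cells (37.9%) and 10 lower (34.5%), beside 33.5% and 28.1% of all genes tested. Without HT-29 replicate 2 the counts were 18 higher and 9 lower of 29, and the median moved to 1.00, against 0.57 with it. With signals under the background level raised to that level, an alternative added after seeing the data, the median with all 9 arrays was -0.13. IFI16, a sensor of foreign DNA, had 910.3, 1298 and 1744 in HT-1080 cells, against 0.691, 27.5 and 9.29 in HT-29 cells. PSMB8, an immunoproteasome subunit, had 310.0, 363 and 475 in HT-1080 cells, against 0.590, 180.2 and 1.02 in HT-29 cells, so that in HT-29 only replicate 2 was above background.

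ISG15, an interferon-induced ubiquitin-like protein, went the other way, with 320.3, 347 and 495 in HT-1080 cells, against 1640.1, 3352 and 1822 in HT-29 cells, as did OAS1 and IRF7 (at least 5.02-fold and 3.03-fold lower). HLA-DRA, a chain of antigen-presenting class II molecules, was at least 4.21-fold higher in HT-1080 cells. Interferon genes that failed the filter were high on HT-29 replicate 2 alone, chosen after their values were seen: IFI27 had 3.12, 2649 and 2.73 in HT-29, BST2 2.29, 1129 and 2.27, and MX1 0.891, 185 and 10.8.

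Of 53 cell cycle genes, 15 were higher (28.3%) and 16 lower (30.2%), beside 33.5% and 28.1% of all genes tested. Their median was -0.02 (0.12 with the normalization probe sets). The counts depended on the scaling: 17 were higher and 14 lower with the normalization probe sets, 15 and 14 under quantile normalization, and 10 and 20 when arrays were scaled to the median signal. CDKN2A, an inhibitor of the kinases partnered by D-type cyclins, had 4.15, 7.07 and 30.2 in HT-1080 cells, against 2022, 3369 and 2162 in HT-29 cells, and CDKN2B, its neighbour and relative, was at least 1.63-fold lower, while the inhibitor gene CDKN1A was higher, as given above. CCND2, a D-type cyclin, was at least 2.18-fold higher in HT-1080 cells, and CDK6 was higher (0.91 ± 0.19).

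Death and survival genes had 11 of 31 higher (35.5%) and 10 lower (32.3%), beside 33.5% and 28.1% of all genes tested. GSDME, a pore-forming gasdermin, had 792, 967 and 1048 in HT-1080 cells, against 11.7, 3.90 and 1.57 in HT-29 cells, and BCL2A1, a BCL2 relative that blocks apoptosis, was at least 10.7-fold higher. PMAIP1 (NOXA), which promotes it, was higher by 2.00 ± 0.22. TNFRSF10A, a receptor of the death ligand TRAIL, was at least 4.25-fold lower in HT-1080 cells, and CFLAR, which blocks death receptor signalling, was lower, with a difference of -1.56 ± 0.18. Of 38 autophagy and lysosome genes, 9 were higher (23.7%) and 6 lower (15.8%), beside 33.5% and 28.1% of all genes tested, and 23 were not called. The counts were 14 and 6 without HT-29 replicate 2, and 13 and 4 with the normalization probe sets. SQSTM1, the autophagy adaptor p62 and an NRF2 target, was lower with overlap (-0.56 ± 0.18), a call lost without HT-29 replicate 3 (-0.43).

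Cancer-testis and germline genes, silent in most adult tissues, were higher in HT-1080 cells for 13 of 16 and lower for 0, with 11 below background on every HT-29 array. Among the 5 others, 2 were higher, and 1 member, MAGEA6, was called lower without HT-29 replicate 2. MAGEB2, a melanoma antigen gene of the X chromosome, had 1666, 1861 and 2003 in HT-1080 cells, against 6.44, 1.61 and 7.72 in HT-29 cells. CTAG2, also an X-linked cancer-testis gene, was at least 57.1-fold higher, and SSX1 had 1681, 2003 and 2194 in HT-1080 cells, against 7.91, 3.80 and 1.14 in HT-29 cells. Genes of these families are near copies and may share probes. LIN28B, a fetal inhibitor of let-7 microRNAs, and IGF2BP1, a fetal RNA-binding protein, were modest in HT-1080 cells (182, 244 and 266 and 94.7, 125 and 168) and at background in HT-29.

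Markers of other cell types were at background with few exceptions. Of 16 immune markers measured, 3 passed the filter, LYZ, CSF1R and HLA-DRA, and their list summed to 254 to 491 in HT-1080 cells and 5841 to 6711 in HT-29, where LYZ alone had 6137, 6684 and 5822. The defining marker of leukocytes, PTPRC, reached at most 17.5 in HT-1080 and 21.0 in HT-29. Of 15 endothelial and smooth muscle markers, 2 passed, ACTA2 and TIE1, while CDH5 of endothelium stayed at or below 17.4 in HT-1080 and 16.5 in HT-29. Of 16 neural, hepatic and squamous markers, 3 passed.

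Ribosomal protein genes, a set expressed by every cell, had 9 of 36 lower in HT-1080 cells, 0 higher and none at least 2-fold apart, with a median of -0.10 (0.04 with the normalization probe sets). These counts turned with the scaling: 10 were higher and 3 lower with the normalization probe sets, 9 and 6 under quantile normalization, and 0 and 18 when arrays were scaled to the median signal.

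Untreated HT-1080 arrays also varied among themselves. The range over the 6 arrays exceeded 1 on the log2 scale for 384 of 7031 genes with a mean HT-1080 signal at or above the trimmed mean. Among the 10 with the largest SD were MALAT1, a nuclear non-coding RNA (169.8, 328 and 1178 on the HT-1080 arrays and 714, 3299 and 1532 on the HT-29 arrays), the solute carrier gene SLC12A8 (34.4, 106 and 619 on the HT-1080 arrays and 177, 149.8 and 164 on the HT-29 arrays), the lipocalin gene PAEP (61.4, 120.1 and 423 on the HT-1080 arrays and 4.74, 3.28 and 0.627 on the HT-29 arrays) and FILIP1 (21.6, 106 and 339 on the HT-1080 arrays and 11.4, 1.50 and 9.03 on the HT-29 arrays). MALAT1 and SLC12A8 overlapped between the lines, and PAEP and FILIP1 did not. Replicate 2 was the highest HT-1080 array for 25 of 36 ribosomal protein genes, and replicate 6 for 30 of 66 respiratory chain genes. The part of these arrays' differences in the line differences was not tested beyond leaving each out.

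The rho0 controls, 2 arrays of HT-1080(rho0) and 1 of HT-29(rho0), share no array with the parental comparison. Of the 1760 genes at least 2-fold higher in parental HT-1080 cells, 1652 (93.9%) were also higher in HT-1080(rho0), and of the 1301 at least 2-fold lower, 1275 (98.0%) were also lower. Over all genes tested, 5099 (50.9%) were higher in HT-1080(rho0). Among the genes named above, EPCAM had a difference of -9.15 between the rho0 lines, VIM 8.27, GPX2 -8.55 and BNIP3 7.66. Of the 216 called genes named in the text, 6 changed sign: CXCL8 (-0.83, against 3.04 in the parental lines), FN1 (-0.15, against 2.92), CCND2 (-0.19, against 3.49), GCLM (0.49, against -1.29), MT1E (0.16, against -0.64) and PGD (0.19, against -0.48). KLK6 had -0.09 between the rho0 lines, against -7.02. With 1 HT-29(rho0) array these differences have no test.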

How the data were processed

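Expression was measured on Affymetrix arrays from total RNA, labelled as biotinylated cRNA per the labels' protocols. The deposited values are intensity signals on a linear scale, made by the authors with MAS5 per the submitters' processing notes, and the genome build and scaling target are not given in the sources used here. Within a line, the 100 normalization probe sets of the platform had the same trimmed mean on every array (4789 in HT-1080 and 5169 in HT-29), so the deposited scaling holds within a line. Of 54675 probe sets, 232 with a missing value were left out.

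Signals were multiplied so that the 2% trimmed mean of every array was 129.6, and log2(signal + 6.48), an offset of 5% of that mean, was used, so differences of low genes are understated. Symbols came from the platform annotation: 41097 probe sets with 1 symbol were used, 1801 with several and 11777 with none were not. The probe set with the highest average of the line means stood for its gene. The lines were compared in limma 3.58.1 (R 4.3.3) with an intensity trend and Benjamini-Hochberg adjustment over 10013 genes, from these 9 arrays alone, and the step was tested on simulated data. Lists were counted, with no test of their own. The members and lists were chosen with earlier results of these data known.

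Genes open to naming were the index genes of each list, up to 8 further members of a list with the largest size among those called at least 2-fold, the 15 largest differences in each direction without overlap, and the 10 with the largest spread in HT-1080. List members that failed the filter could also be named as such. Any other gene is said to be chosen after its values were seen. The labels do not say that replicate numbers pair the lines. Deviations of same-numbered arrays correlated at 0.04, -0.06 and 0.09, and those of differently numbered arrays at -0.12 to 0.09. With so few arrays, these values cannot settle whether the numbers pair the lines. Alternatives were the offset, the filter, the scaling, the probe set of a gene, the variance model, the samples in the fit, a replicate block, the arrays whose control name carries Pt and leaving out each array, where fits to fewer arrays kept the tested genes and their probe sets. Sex-linked marker genes and some of the promoter motifs planned are not reported here.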

Additional observations from a re-analysis of the deposited data

Results flagged for a closer look

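For 19 of the 244 tested genes the text names, 1 of the 6 HT-1080 arrays lay far from the others on the log2 scale by Dixon's test, which chance gives in about 1 in 20 genes, and which 5.50% of all genes met. Where every HT-1080 signal was below background, these were AGR2 (8.97 on replicate 6), CEACAM1 (13.1 on replicate 3), ESRP1 (17.2 on replicate 2), KLK10 (6.29 on replicate 6), LGR5 (3.12 on replicate 4), MAL2 (8.73 on replicate 4), MMP7 (0.601 on replicate 5) and RNF43 (1.59 on replicate 2). Replicate 6 was high for ASNS (1402, the others 490.5 to 723), SESN2 (594, the others 216 to 303), SLC3A2 (449, the others 270.4 to 327) and STC1 (5335, the others 4102 to 4446). It was low for IDH3A (379.6, the others 521 to 604) and MDM2 (403, the others 669.6 to 736). Replicate 1 stood apart for SRGN (3542, the others 4028 to 4209) and VEGFA (611, the others 879 to 992). Replicate 2 stood apart for GSDME (792, the others 955 to 1048) and PYGB (148, the others 258 to 343). Replicate 3 stood apart for BEX1 (946, the others 1364 to 1506). The 3 HT-29 arrays are too few for this test.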

How the results depend on the processing

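Over 27 alternatives, the counts of genes higher and lower in HT-1080 cells ranged from 2484 to 4018 and from 2074 to 3176, against 3353 and 2810, and none moved by over 1.5 times. Leaving out each array in turn gave 3044 to 3392 higher and 2577 to 2840 lower, and 1729 to 1806 and 1290 to 1331 at least 2-fold. Among the 244 tested genes the text names, 211 kept their direction and their side of the threshold under every alternative that gave a value. Differences changed sign with the passing probe set of lowest signal, ERO1A (-0.0296, against 1.11), HSPA5 (0.60, against -0.32), MT1E (0.10, against -0.64) and SQSTM1 (0.0898, against -0.56); with the mean of all passing probe sets of a gene, HSPA5 (0.14, against -0.32); within the arrays whose control name carries Pt, PHLDB2 (-0.76, against 1.47). Leaving out each array, the difference of MAGEA6 ranged from -0.51 to 1.88, against 1.06, and the difference of PHLDB2 ranged from -0.78 to 2.61, against 1.47, in each case changing sign without HT-29 replicate 2. The cause was not tested. Without 1 array, further calls were made for CES1, CRIP2 and LDHB (without HT-29 replicate 2, differences -3.80, 3.20 and -0.27), DNAJB9, HK2 and SLC7A11 (without HT-29 replicate 1, -0.44, 0.51 and -0.88) and ROBO1 (without HT-29 replicate 1 or 3, 2.14 and 2.12). TAP1 was no longer called without HT-29 replicate 3 (0.97, against 1.51), and HBE1 was 2.12 without HT-29 replicate 2, against 4.36. SLC7A11 was also called without HT-1080 replicate 6 (-0.70). By the probe set of lowest signal, the calls of 7 named genes were lost, among them CALR (0.25), CDK6 (0.52), HMGA2 (0.50), HMGCS1 (-0.72), ITGA6 (-0.0983) and MALAT1 (-0.17). The labels do not say that replicate numbers pair the lines, and with the replicate block on replicates 1 to 3 (2 residual degrees of freedom) 2696 genes were higher and 2348 lower. Within the arrays whose control name carries Pt (2 of HT-1080, 1 of HT-29) the counts were 2484 and 2074, within the others 2887 and 2392; the lone HT-29 array was assumed to vary like the HT-1080 arrays. Signals near the background level limit genes that 1 line does not express to bounds.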

Other observations

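The genes that set HT-29 replicate 2 apart were also read on the HT-29 arrays outside the comparison. Of the genes tested, 47 differed on replicate 2 by at least 3 on the log2 scale from the mean of replicates 1 and 3. On the glucose-starved HT-29 array for which the labels name replicate 2 as the control, 47 of them differed in the same direction from the mean of the other starved HT-29 arrays, 46 by at least 1. CES1 had 6390.3, 33.7 and 2996 on the starved arrays 1, 2 and 3, PHLDB2 4750.3, 30.3 and 4134, MAGEA6 6462, 268 and 5217 and IFITM3 2.24, 1150.1 and 8.01. The HT-29(rho0) control had a CES1 signal of 12.4 but a PHLDB2 signal of 1398 and a MAGEA6 signal of 4616, so it was low for CES1 alone of these 3 genes. Of the genes high on replicate 2, CRIP2 was above background on the HT-29(rho0) control (72.3), while IFITM3 and NNMT were below it (17.6 and 12.5). The 2 HT-29 arrays numbered 2 thus share a pattern that the labels do not describe.

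Genes with large differences also lay side by side, a pattern chosen after the values were seen and not tested. There were 15 runs of at least 5 neighbouring tested genes all at least 2-fold apart in the same direction, in the gene order of RefSeq. The longest, 11 genes on chromosome 6 from AGPAT1 to PSMB9, was higher in HT-1080 cells and includes HLA-DRA, TAP1 and PSMB8 of antigen presentation. A run of 10 on chromosome 8 from SAMD12 to C8orf76, with MAL2, MRPL13 and DERL1, was lower. A run of 7 on the X chromosome from BEX1 to TCEAL1, with BEX3, and 1 of 8 zinc finger and neighbouring genes on chromosome 19 from ZNF529 to ZNF573 were higher. A run of 5 on chromosome 17 from PGAP3 to ORMDL3, with ERBB2 and GRB7, was lower. By chromosome, the median difference was highest for chromosome 4 (0.52, 365 genes) and chromosome 3 (0.42, 570 genes), and lowest for chromosome 16 (-0.40, 438 genes) and chromosome 11 (-0.26, 605 genes).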
